A study of Mus musculus with 9 samples.

Results

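The interferon-stimulated genes described here are 45 genes that cells switch on after sensing type I or type II interferon, listed by symbol and read on 9 arrays of dendritic cells (DCs) from mouse spleen. A member was measured where a probe, that is a set of short oligonucleotides read as 1 value, was annotated with exactly 1 of the symbols, and its brightest such probe was used. Of the 45 listed genes, 40 were measured, among 22180 genes in all. Another 4 (Dtx3l, Oas1a, Ifi27l2a and Gbp2) lay only on probes annotated with several genes, and Ifi44 had no named probe, so these 5 have no value. The samples were 6 controls with intact Cebpb (C/EBPbeta+/+) and 3 knockouts (C/EBPbeta-/-), all labelled C57BL/6 in strain and Naive in microenvironment, with cells sorted from the spleen by CD11c and MHC class II. The knockouts came from CD11c.Cre x C/EBPβflox/flox mice, in which the CD11c promoter drives the Cre recombinase that removes the floxed gene from CD11c-expressing cells. The labels name C57BL/6 mice and CD11c.Cre mice as further sources without saying which control came from which, while the series' design text gives CD11c-Cre-eGFP mice alone as the control. Age, pooling of animals and whether replicates were separate animals were not given in the sources used here, so a p-value here reflects the scatter among these arrays, part of which could be technical. The design text asks how C/EBPβ acts on DC maturation in unchallenged mice.

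Interferons bind receptors on the cell surface, the attached JAK kinases phosphorylate transcription factors, and a complex that holds STAT2 and IRF9 binds the interferon-stimulated response element (ISRE) in front of target genes. The gamma-activated site (GAS) is a second element, found at many genes that respond to interferon gamma, such as those of the guanylate-binding proteins. Splenic DCs of unchallenged animals keep many of these genes on at a tonic level, and C/EBPβ is itself a known partner in some interferon gamma responses.

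All values are log2 intensities, and a difference is the mean of the knockouts minus the mean of the controls on that scale. It was tested with limma over all 22180 genes, and a gene was called where its Benjamini-Hochberg adjusted p was under 0.05. The array medians lay between 5.49 and 5.56. Cebpb, the deleted gene, had a lowest, median and highest control value of 6.64, 6.77 and 7.15, and knockout values of 5.37, 5.60 and 5.42. It fell by 1.35 (SE 0.11, limma adjusted p = 0.00074). Itgax, which encodes the CD11c used in the sort, was 12.04 to 12.25 in the controls and 12.18, 12.18 and 12.10 in the knockouts.

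The sequences shown are those in front of the genes that the comparison turns on, with 2 genes known for strong ISREs beside them. Each line holds the 150 bases before the RefSeq transcription start (build GRCm38.p6), written along the gene's own strand, and capitals mark matches to the ISRE core, GAAA followed by any 2 bases and a second GAAA, on either strand; on the other strand it reads TTTC, any 2 bases, TTTC. Overlapping matches were counted separately, and no match says only that these letters are not in the window.
Rsad2 chr12:26456453-26456602 (-): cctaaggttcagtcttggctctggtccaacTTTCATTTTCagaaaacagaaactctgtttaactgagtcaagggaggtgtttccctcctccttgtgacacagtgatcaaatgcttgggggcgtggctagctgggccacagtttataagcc
Cmpk2 chr12:26469065-26469214 (+): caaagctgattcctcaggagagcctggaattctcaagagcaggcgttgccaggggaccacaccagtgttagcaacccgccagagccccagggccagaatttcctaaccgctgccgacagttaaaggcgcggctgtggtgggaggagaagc
Ddx58 chr4:40239826-40239975 (-): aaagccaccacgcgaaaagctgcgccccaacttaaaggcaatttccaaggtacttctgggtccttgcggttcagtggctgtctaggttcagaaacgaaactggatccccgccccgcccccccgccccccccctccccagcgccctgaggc
Gbp3 chr3:142559894-142560043 (+): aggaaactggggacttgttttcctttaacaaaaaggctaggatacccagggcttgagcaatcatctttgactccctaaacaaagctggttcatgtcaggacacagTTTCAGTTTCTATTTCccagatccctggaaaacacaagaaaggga
Ifit1 chr19:34640739-34640888 (+): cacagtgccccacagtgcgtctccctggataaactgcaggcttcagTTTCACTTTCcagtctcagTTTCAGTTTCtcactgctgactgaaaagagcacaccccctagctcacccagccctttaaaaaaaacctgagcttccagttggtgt
Isg15 chr4:156200819-156200968 (-): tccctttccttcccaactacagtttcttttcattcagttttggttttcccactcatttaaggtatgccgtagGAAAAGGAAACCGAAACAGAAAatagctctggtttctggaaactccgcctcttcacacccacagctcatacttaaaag
Rsad2 had 1 match, 120 bases before its start, while its neighbour Cmpk2 and Ddx58 had none of these letters in the window. Ifit1 had 2 matches, 104 and 85 bases before the start, and Isg15 had 3 that overlap, at 78, 72 and 66. The Gbp3 line shows the first of its 2 listed starts.

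RefSeq promoter entries were found for 31 of the 40 measured members, with 37 transcription starts. Within 250 bases before the start, the ISRE core was present at 17 of the 37 member starts (45.9%), against 2.98% of 32851 starts of all genes. The GAS letters TTCNNNGAA were present at 8 of 37 (21.6%), against 7.02% of all starts. A C/EBP motif, TTGCNNAA or TTNNGCAA on the other strand, was present at 1 of the 37, a start of Gbp3, against 9.56% of all starts. The members were listed as interferon targets, so the ISRE and GAS shares describe the list. The C/EBP share counts letters within 250 bases and does not show whether C/EBPβ binds at these genes. The 16 members with an ISRE core had differences between knockout and control from -0.33 to 0.57, with a median of 0.00, and the 15 without one ranged from -0.31 to 0.35, with a median of -0.04.

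In the knockouts 1 interferon-stimulated gene, Rsad2, rose, and in all but 8 of the 40 measured members the knockout values overlapped the range of the controls. Of the 40 measured members, 1 was called higher (2.5%) and 0 lower by limma, against 0.906% of all genes called, 0.415% higher and 0.491% lower. At an unadjusted p under 0.05, 9 members passed, 4 higher and 5 lower (22.5%), against 14.3% of all genes. The 3 knockouts lay above all controls in 3 members and below all of them in 5, together 20.0%, against 7.39% of all genes (2.52% above and 4.88% below). The difference was negative in 27 members (67.5%, against 55.0% of all genes) and positive in 13, and its median was -0.07, against -0.01 over all genes. Without knockout replicate 3 it was negative in 22 and positive in 18. The 95% confidence interval lay within 0.50 of zero for 33 of the 40 members (82.5%), against 89.6% of all genes, so a change of that size lay outside the interval for these 33.

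**Figure D1:**
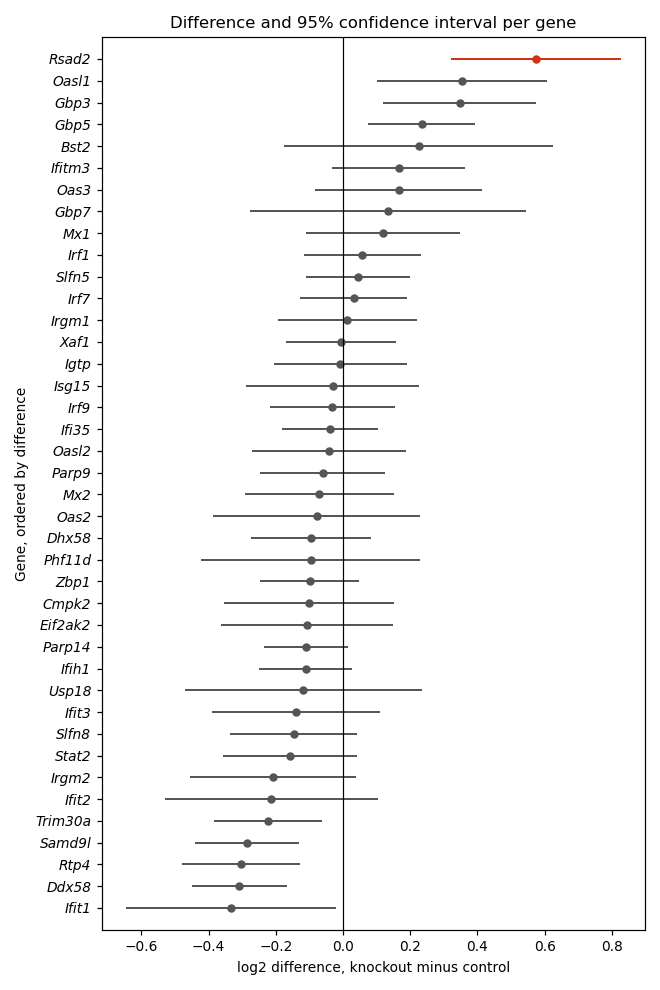
Difference between knockout and control on the log2 scale (horizontal axis) for the 40 measured genes (vertical axis), with 95% confidence intervals as bars; red marks an adjusted p under 0.05. Rsad2, at 0.57, is the gene in red. The other differences lie on both sides of 0, down to Ifit1 at -0.33. Some of their intervals exclude 0, such as those of Ddx58 below it and Gbp5 above it.

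The members also varied from control to control. Set against its mean over the controls, a member's value had a median over the 40 of -0.12, 0.02, -0.05, 0.11, -0.02 and 0.08 in control replicates 1 to 6. In knockout replicates 1 to 3 it was -0.02, -0.01 and -0.12, within the range of the controls. Control replicate 1 gave the lowest control value for 21 of the 40 members, and control replicate 4 gave the highest for 14. Among the knockouts, replicate 3 lay below the control mean in 33 members, replicate 1 in 23 and replicate 2 in 22. The median control SD of a member was 0.14, against 0.12 over all genes.

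**Figure D2:**
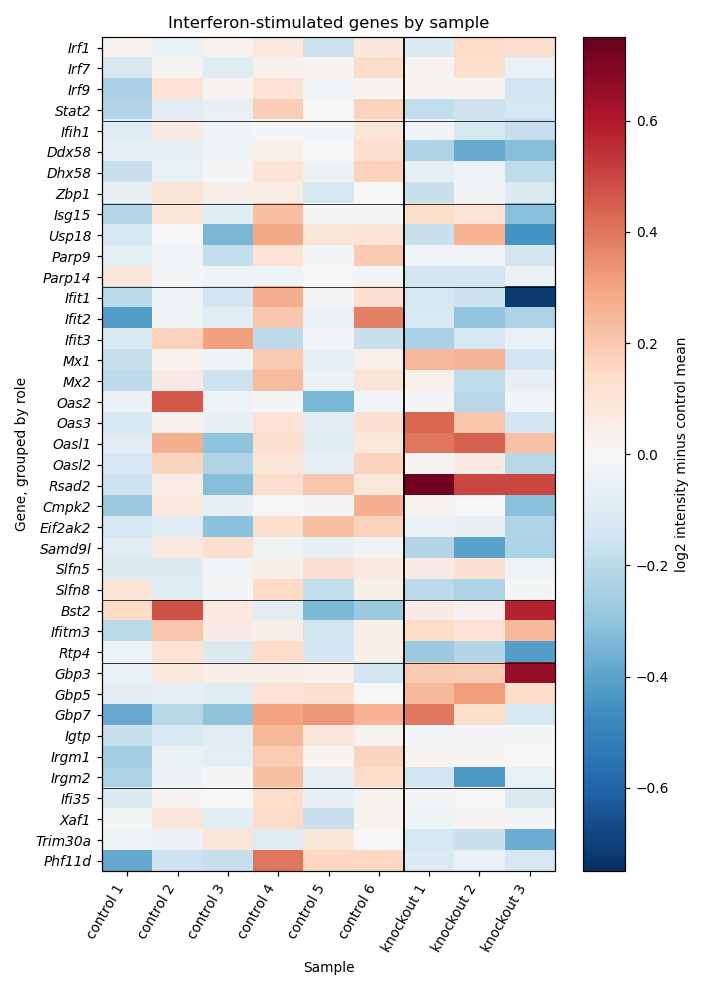
Log2 intensity minus the control mean (colour, blue below and red above) for the 40 genes in rows, grouped by role, and the 9 samples in columns, with the knockouts right of the line. Control replicate 1 is mostly blue (36 of 40 genes below the control mean) and control replicates 4 and 6 mostly red (32 of 40 above), while the Rsad2 row is red in the 3 knockouts.

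The 4 transcription factors of the pathway were near their control levels in the knockouts. None was called by limma, and 0 of the 4 passed an unadjusted p of 0.05, against 14.3% of all genes. Irf7, the factor that amplifies type I interferon production, had 10.25, 10.39 and 10.51 as its lowest, median and highest control value and 10.39, 10.50 and 10.32 in the knockouts. The groups overlapped, and the difference was 0.03 (95% interval -0.12 to 0.19). Irf9, the DNA-binding subunit of the complex on the ISRE, had 9.82, 10.09 and 10.17 in the controls and 10.09, 10.09 and 9.92 in the knockouts. Its difference was -0.03 (-0.22 to 0.15), again with overlapping groups. Stat2, its partner, had 10.01, 10.20 and 10.41 in the controls and 10.04, 10.07 and 10.10 in the knockouts. The knockouts lay in the lower part of the control range, with a difference of -0.16 (-0.35 to 0.04, adjusted p = 0.47). Irf1, which responds to interferon gamma, had 9.85, 10.04 and 10.10 in the controls and 9.91, 10.16 and 10.14 in the knockouts. In 2 knockouts it lay just above all controls, and the difference was 0.06 (-0.11 to 0.23).

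Among the sensors of viral nucleic acid, the gene for RIG-I was the lowest relative to the controls. Ddx58, which encodes this sensor of RNA with a triphosphate end, had 8.75, 8.81 and 8.95 as its lowest, median and highest control value and 8.59, 8.44 and 8.51 in the knockouts. The 3 knockouts lay below all 6 controls. The difference was -0.31 (SE 0.06, 95% interval -0.45 to -0.17), and it missed the threshold (limma adjusted p = 0.052). It was called when genes with a mean under 5 were left out (adjusted p = 0.033), with trend and robust moderation (0.042), with array weights (0.019) and without knockout replicate 1 (0.048), and its difference stayed between -0.35 and -0.25 over all 19 alternatives. The other 3 sensors had overlapping groups and smaller negative differences. Ifih1, which encodes the long-RNA sensor MDA5, differed by -0.11, Dhx58, the regulator LGP2, by -0.10, and Zbp1, a sensor of left-handed nucleic acid that triggers cell death, by -0.10, with adjusted p between 0.46 and 0.66.

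Among the genes of ISG15 conjugation, its feedback and ADP-ribosylation, the 3 knockouts did not lie together in Isg15 and Usp18. Isg15, the ubiquitin-like modifier, had 8.60, 8.80 and 9.04 in the controls and 8.94, 8.91 and 8.50 in the knockouts. Usp18, which removes ISG15 and dampens the type I interferon receptor, had 9.64, 10.02 and 10.27 in the controls and 9.82, 10.24 and 9.53 in the knockouts. In both genes knockout replicate 3 lay below all controls and the other 2 knockouts within their range. The ADP-ribosyltransferase genes Parp9 and Parp14 differed by -0.06 and -0.11, and in Parp14 the 3 knockouts (9.68, 9.68 and 9.77) lay below the lowest control (9.78). Of these 4 genes, 0 were called and 0 passed an unadjusted p of 0.05 by limma, against 0.906% and 14.3% of all genes.

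Of the 15 measured effectors that act on viral RNA or replication, 1 was called higher and 0 lower by limma (6.67%, against 0.906% of all genes). At an unadjusted p of 0.05, 4 passed, 2 in each direction (26.7%, against 14.3%). Rsad2 encodes viperin, a radical enzyme that makes a chain-terminating nucleotide and blocks several viruses. Its lowest, median and highest control values were 7.45, 7.84 and 7.98, and its knockout values were 8.49, 8.27 and 8.27. Every knockout lay above every control. The control mean was 7.77 ± 0.20 (SD, n = 6), the knockout mean 8.34 ± 0.13 (SD, n = 3), and limma gave a difference of 0.57 with an SE of 0.11 and a 95% interval from 0.32 to 0.83, which is 1.49-fold (adjusted p = 0.048). The call was lost without any 1 of the 9 samples. These fits gave an adjusted p between 0.061 and 0.15, with differences from 0.50 to 0.62, and centring the arrays on their medians gave 0.057.

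Oasl1, a member of the oligoadenylate synthetase family without that activity that restrains Irf7 translation in mice, had 7.39, 7.69 and 7.96 in the controls and 8.09, 8.13 and 7.91 in the knockouts. Knockout replicates 1 and 2 lay above all controls and replicate 3 below the highest control. The difference was 0.35 (SE 0.11), and it was not called (limma adjusted p = 0.18). Ifit1, which binds RNA lacking cap methylation, had 8.07, 8.25 and 8.54 in the controls and 8.15, 8.11 and 7.55 in the knockouts. Only knockout replicate 3 lay below the controls, and the difference of -0.33 (SE 0.14, limma adjusted p = 0.31) became -0.14 without that sample. With the mean of the plasmacytoid DC markers as a covariate, chosen after seeing the data, it was -0.12. Samd9l, an antiviral restriction factor, had 8.47, 8.53 and 8.68 in the controls and 8.34, 8.16 and 8.32 in the knockouts. Here the 3 knockouts lay below all controls, with a difference of -0.29 (SE 0.07, limma adjusted p = 0.085). With array weights Samd9l was called (adjusted p = 0.029).

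The remaining 11 effectors (Ifit2, Ifit3, Mx1, Mx2, Oas2, Oas3, Oasl2, Cmpk2, Eif2ak2, Slfn5 and Slfn8) had overlapping groups and differences from -0.21 (Ifit2) to 0.17 (Oas3), with adjusted p of 0.48 or more. They include the dynamin-like GTPases Mx1 (0.12) and Mx2 (-0.07), Eif2ak2 (-0.11), which encodes the double-stranded RNA-activated kinase PKR, and the synthetase Oas2 (-0.08). Ifit2 had the lowest signal of all measured members, with 5.51, 5.88 and 6.30 in the controls and 5.81, 5.63 and 5.69 in the knockouts. Its groups overlapped. Signals of different probes depend on their oligonucleotides and give no order between genes.

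**Figure D3:**
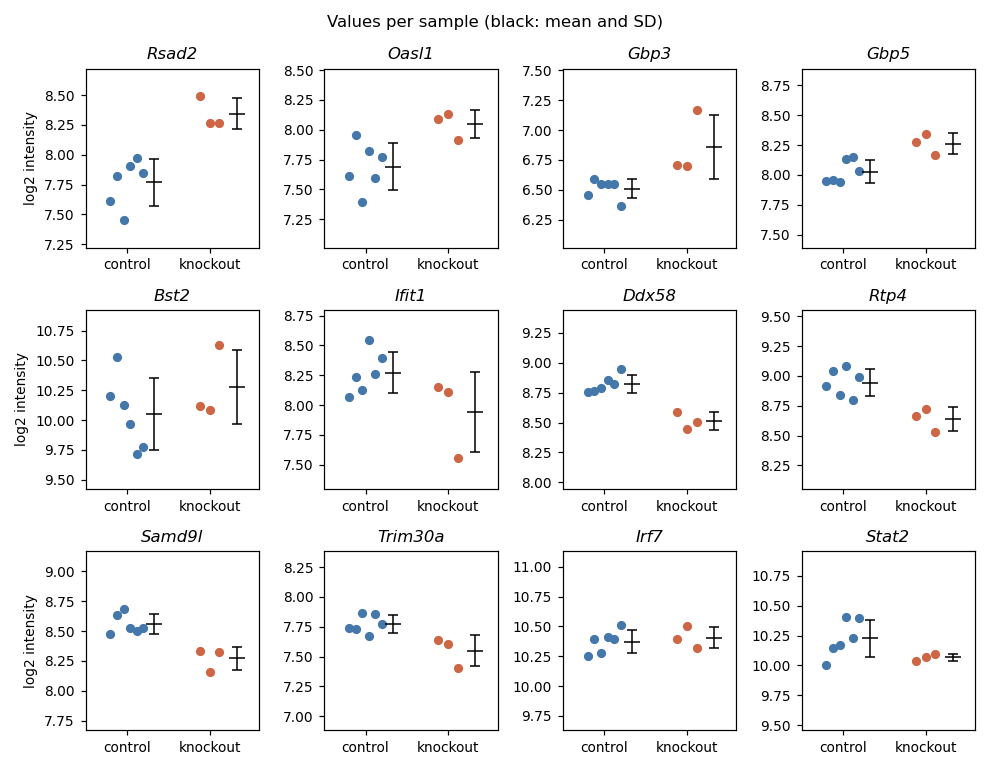
Log2 intensity (vertical axis, same span in every panel) of 12 genes in the 6 controls (blue) and 3 knockouts (orange), with the mean and SD of each group in black. Knockouts lie above all controls in Rsad2, Gbp3 and Gbp5 and below all controls in Ddx58, Rtp4, Samd9l and Trim30a, and the groups overlap in the other 5.

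Of the 3 measured membrane antiviral genes, 1 had a negative and 2 a positive difference. Rtp4, an interferon-induced chaperone of surface receptors, had 8.80, 8.95 and 9.08 in the controls and 8.67, 8.72 and 8.53 in the knockouts. The knockouts lay below all controls, with a difference of -0.30 (SE 0.08, limma adjusted p = 0.10). Bst2, which encodes tetherin, a protein that holds budding virions and marks plasmacytoid DCs, had 9.72, 10.05 and 10.53 in the controls and 10.12, 10.08 and 10.63 in the knockouts. The groups overlapped (difference 0.22, 95% interval -0.17 to 0.62). Its 2 highest values were in knockout replicate 3 and control replicate 2, the samples in which the mean of 9 plasmacytoid DC markers was highest, at 8.06 and 7.82, against 7.50 to 7.66 in the other controls and 7.68 and 7.79 in the other knockouts. With that mean as a covariate, chosen after seeing the data, the difference of Bst2 was -0.10. The 9 markers did not move together: 6 had a positive and 3 a negative difference, from -0.05 (Lair1) to 0.84 (Klk1), and limma called 0. Among them Ly6d was 8.85 in knockout replicate 3 and 8.22 in control replicate 2, against at most 7.46 elsewhere. The order of the means thus rests partly on 1 marker. In bulk RNA, a larger share of a cell type and more RNA per cell cannot be told apart. Ifitm3, which blocks viral entry from endosomes, had the brightest probe of the members, with 11.29, 11.53 and 11.69 in the controls and 11.63, 11.60 and 11.74 in the knockouts. The groups overlapped, and the difference was 0.17 (-0.03 to 0.36). Of these 3 genes limma called 0, and Rtp4 passed an unadjusted p of 0.05 (33.3%, against 14.3% of all genes).

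The interferon-inducible GTPases act in defence against intracellular pathogens, and 4 of the 6 measured had a positive difference. Gbp3 had 6.37, 6.55 and 6.59 in the controls and 6.71, 6.70 and 7.16 in the knockouts. All knockouts lay above all controls, knockout replicate 3 farthest, and the difference was 0.35 (SE 0.10, limma adjusted p = 0.15). Gbp5, which promotes inflammasome assembly, had 7.94 to 8.15 in the controls, with a mean of 8.03, and 8.27, 8.34 and 8.17 in the knockouts. Again the groups did not overlap, with a difference of 0.23 (SE 0.07, limma adjusted p = 0.16). Gbp7 overlapped widely (difference 0.13, 95% interval -0.27 to 0.54). The immunity-related GTPases Igtp and Irgm1 had differences of -0.01 and 0.01, and Irgm2 of -0.21 (adjusted p = 0.44). Limma called 0 of these 6 genes, and 2 passed an unadjusted p of 0.05 (33.3%, against 14.3% of all genes).

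Among the other 4 interferon-induced genes, Trim30a, a ubiquitin ligase that dampens Toll-like receptor signals, had 7.68, 7.76 and 7.87 in the controls and 7.64, 7.61 and 7.40 in the knockouts. The knockouts lay below all controls, with a difference of -0.22 (SE 0.07, limma adjusted p = 0.18). Ifi35 (-0.04, and 0.03 by its second probe), Xaf1 (-0.01) and Phf11d (-0.10) had overlapping groups. Limma called 0 of the 4, and Trim30a alone passed an unadjusted p of 0.05.

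Rsad2 lies next to Cmpk2, a nucleotide kinase gene of mitochondria that is usually induced with it, and Cmpk2 overlapped between the groups. Cmpk2 had 7.38, 7.65 and 7.92 in the controls and 7.67, 7.65 and 7.34 in the knockouts, a difference of -0.10 (95% interval -0.35 to 0.15). Rsad2 minus Cmpk2 was -0.15 to 0.33 in the controls and 0.62 to 0.93 in the knockouts. The group means of this quantity were 0.11 ± 0.19 (SD, n = 6) and 0.79 ± 0.16 (SD, n = 3), and they differed by 0.68. The exact two-sided permutation p was 0.012, the smallest that 84 assignments can give. Rsad2 is the member that was called, and its 3 knockouts by themselves lay above all controls. The test of this pair therefore reuses the values of Rsad2 and is no separate support for its difference. The 10 pairs compared were measured members that follow each other along a chromosome, with no measured member and at most 3 protein-coding genes between them in RefSeq order. Adjusted over these 10, the p was 0.06. With 0.012 as the floor, this pair could not have passed 0.05 alone or with another pair at the floor. The adjusted p therefore decides nothing. The pair Oasl1 and Oasl2 gave the same p values. Oasl1 minus Oasl2 was -2.03 to -1.85 in the controls and -1.57 to -1.52 in the knockouts, a shift of 0.40. In the other 8 pairs, among them Oas3 with Oas2, Gbp5 with Gbp7 and Ifit3 with Ifit1, the shift was between 0.05 and 0.24 with exact p from 0.071 to 0.74. Each pair was written with the gene of the higher difference first, so every shift is positive by construction. The pairs were chosen with the values known.

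**Figure D4:**
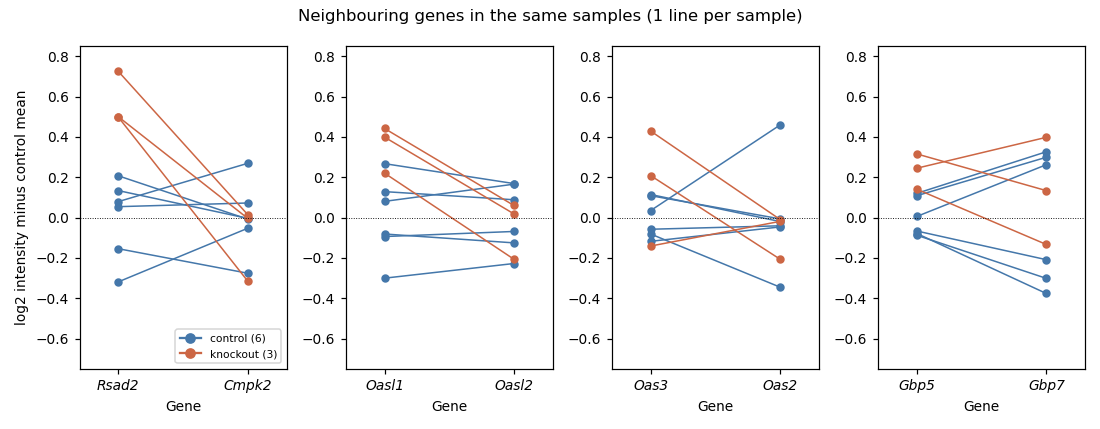
Log2 intensity minus the control mean (vertical axis) of both genes of 4 neighbouring pairs, joined by 1 line for each sample, with controls in blue and knockouts in orange. In the first 2 panels each orange line runs down from left to right, since Rsad2 minus Cmpk2 and Oasl1 minus Oasl2 exceeded the control mean in all 3 knockouts, and in the last 2 the groups mix.

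Around the members, 3 of 114 measured pathway genes listed by function were called (2.63%), against 0.906% of all genes. Among ligands, receptors and kinases, 1 of 27 measured genes was higher and 0 lower by limma (3.7%, against 0.906% of all genes). Socs3, a feedback inhibitor of JAK kinases that serves the interleukin-6 family above all, rose by 0.39 (SE 0.08, adjusted p = 0.046). Its values were 6.97, 7.22 and 7.24 in the controls and 7.47, 7.55 and 7.66 in the knockouts, without overlap. The call was kept in 1 of the 9 fits that left out a sample, the one without knockout replicate 1 (adjusted p from 0.044 to 0.15 over the 9). Ifnar1, a chain of the type I interferon receptor, differed by 0.19 (adjusted p = 0.18) and Il10rb by 0.14 (adjusted p = 0.28). Among genes that sense nucleic acid or induce interferon, limma called 0 of 20. At an unadjusted p of 0.05, 4 passed (20.0%, against 14.3% of all genes). The 3 with the smallest p were Rnaseh2b (-0.26), Ticam1 (0.24) and Traf6 (0.25).

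Among 68 further interferon-induced genes, 2 were called higher and 0 lower by limma (2.94%, against 0.906% of all genes), with a median difference of -0.01, as over all genes. Ifitm2, an entry inhibitor like Ifitm3, had 8.66, 8.85 and 8.95 in the controls and 9.36, 9.54 and 9.28 in the knockouts, and rose by 0.55 (SE 0.08, adjusted p = 0.020). Ifi204, a DNA sensor, had 5.66, 6.08 and 6.26 in the controls and 6.85, 7.42 and 6.76 in the knockouts, and rose by 0.97 (SE 0.16, adjusted p = 0.026). The groups did not overlap in either gene. Ifitm2 was called in 7 of the 9 fits that left out a sample, and not without control replicate 4 (limma adjusted p = 0.063) or knockout replicate 2 (0.096). Ifi204 was called in 5 of the 9, and not without control replicates 1, 4 or 6 or knockout replicate 2 (limma adjusted p from 0.054 to 0.081). Neither was called with any of the 3 marker covariates, nor was Socs3. Trim25, the ubiquitin ligase that activates RIG-I, came next with 0.48 (adjusted p = 0.061). Of the 68 genes, 26 passed an unadjusted p of 0.05 (38.2%, against 14.3% of all genes), 14 higher and 12 lower. Without knockout replicate 1, 2 or 3 in turn, and without each control, between 0 and 3 of all 114 pathway genes were called.

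Markers of other cells that the gate could hold were read beside these results, and their part in them was not tested beyond the covariates given here. The mean of 9 non-classical monocyte markers was 9.67 to 10.03 in the controls and 10.09 to 10.24 in the knockouts. Of these 9, 2 were called higher (22.2%, against 0.906% of all genes), Ace by 1.16 and Adgre4 by 0.83. The median difference of the 9 was 0.12, with 7 positive and 2 negative, down to -0.20 for Eno3. Treml4 and Cx3cr1 differed by 0.02 and 0.03. The mean of 13 red pulp macrophage markers was 8.09 to 9.23 in the controls and 8.89 to 9.40 in the knockouts. Limma called 0 of the 13, and 9 passed an unadjusted p of 0.05 (69.2%, against 14.3% of all genes). The mean of 7 plasma cell markers was 7.16 to 7.42 in the controls and 7.74 to 7.81 in the knockouts. Of these 7, 2 were called higher (Jchain and Prdm1, 28.6% against 0.906% of all genes). The mean of 12 conventional DC markers was 10.96 to 11.11 in the controls and 10.88 to 10.97 in the knockouts. Of these 12, 1 was called lower (Dtx1, -0.46), which is 8.33% against 0.906% of all genes. An intensity has no true 0, so no marker could be shown to be absent. The knockouts also lay above all controls in the mean of 9 neutrophil markers (5.31 to 5.34 against 5.19 to 5.28). The median difference of these 9 was 0.01, with 6 positive and 3 negative, and the highest was 0.465 for Csf3r. Of 8 listed erythroid markers 3 were measured, and their mean was 5.78 to 5.97 against 5.59 to 5.70. Their differences ran from -0.01 (Klf1) to 0.50 (Slc4a1). Both lists were dim. For 12 B cell markers the controls had means of 7.54 to 7.70, while knockout replicate 3 had 8.26, replicate 1 had 7.76 and replicate 2 had 7.46. The means of 8 classical monocyte markers (6.41 to 6.49 against 6.21 to 6.78) and 10 T and NK cell markers (5.77 to 5.90 against 5.74 to 5.92) overlapped. With these markers as a covariate, chosen after seeing the data, Rsad2 differed by 0.50 for macrophages (adjusted p = 0.49), 0.57 for plasmacytoid DCs (adjusted p = 0.22) and 0.23 for non-classical monocytes (adjusted p = 0.97). Ddx58 differed by -0.25, -0.28 and -0.35 in the same fits, with adjusted p of 0.51, 0.28 and 0.90. In the fit with the non-classical monocyte mean, which separates the groups, Cebpb itself was no longer called (-1.06, adjusted p = 0.19).

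**Figure D5:**
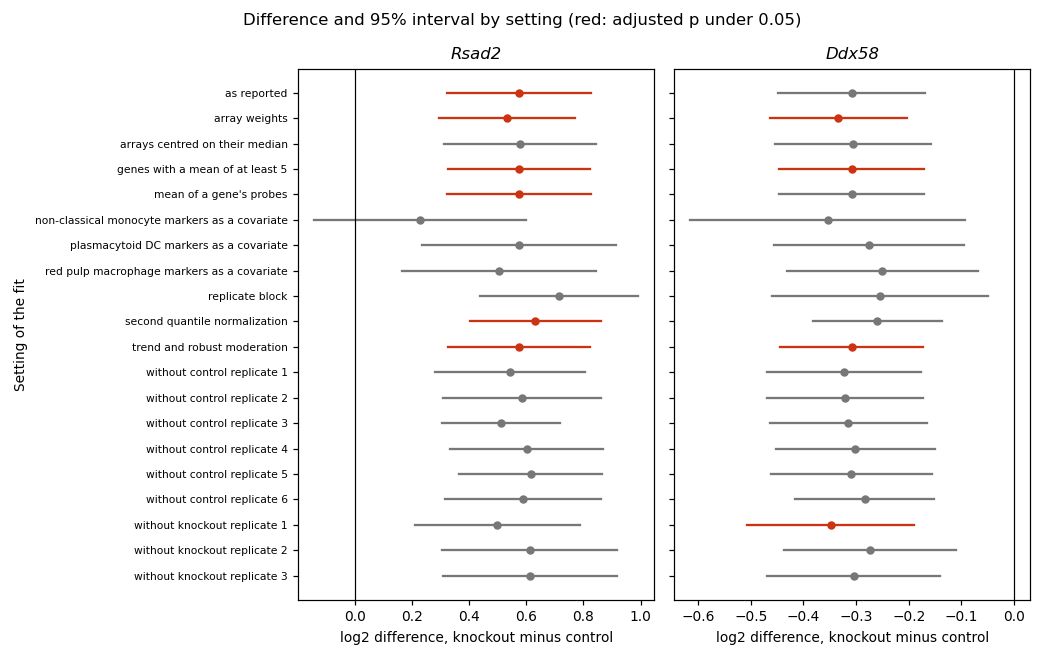
Difference between knockout and control with its 95% confidence interval (horizontal axis, log2) for Rsad2 and Ddx58 in the reported fit and 19 alternatives (vertical axis), red where the adjusted p was under 0.05. Rsad2 is positive in all 20 fits and red in 6 of them, and Ddx58 is negative in all 20 and red in 4.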

How the data were processed

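RNA of 9 samples was read on single-channel arrays, 1 per sample. The authors deposited log2 intensities made with RMA (background correction, quantile normalization and probe summary), per the submitters' processing notes; the sources used here do not give its version, settings or genome build. Quantile normalization removes a shift shared by most genes. Of 34468 probes with values, 23521 had 1 symbol in the platform annotation, 1814 several and 9133 none. The brightest probe per gene by mean gave 22180 genes, compared with limma 3.58.1 in R 4.3.3 without covariate. Scripts were tested on simulated data. The number of arrays limits precision. The members and lists were chosen with earlier results of these data known. Values per sample are given for members past 0.05, the 5 largest differences each way, the transcription factors and the brightest and dimmest member, and for pathway genes past 0.05; their lists' 3 smallest p are named. Any gene named beyond this rule was picked with its values in view. The alternatives were 16 planned and 3 added settings: array centring, quantile normalization, variance moderation, array weights (statmod 1.5.0), a replicate block, each sample left out, a filter at 5, probe means and cell marker covariates. Promoters are RefSeq's, GRCm38.p6.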

Additional observations from a re-analysis of the deposited data

Results flagged for a closer look

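Of the 40 members, 1 had a control sample apart from the other 5 by Dixon's criterion, which chance meets in about 1 of 20 groups. Parp14 was 9.91 in control replicate 1, against 9.82 in the next control.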

How the results depend on the processing

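The count of members called higher, 1 as reported, was 0 with arrays centred on their medians, with a replicate block and with each of the 3 marker covariates, and 0 without any 1 sample. The block used replicate numbers, and control replicates 4 to 6 had no knockout with the same number. It therefore compared the knockouts with control replicates 1 to 3 alone. The count called lower, 0 as reported, was 2 with array weights and 1 with trend and robust moderation or with genes of a mean of at least 5, and 0 to 1 without any 1 sample. Over all genes, 201 calls became 652 with array weights, 360 with the mean filter, 2 with the replicate block, and 8, 9 and 3 with the macrophage, plasmacytoid DC and non-classical monocyte covariates, and 33 to 332 without any 1 sample. Calls among the other pathway genes, 3 as reported, were 8 with array weights, 5 with the mean filter, 0 with the replicate block or a covariate, and 0 to 3 without any 1 sample. The median of the members, -0.07 as reported, was -0.09 to -0.01 without any 1 sample and turned to 0.01 with the replicate block, where 21 members were positive and 19 negative. Cebpb was not called with the replicate block (-1.47, adjusted p = 0.14) or the non-classical monocyte covariate (-1.06), and ranged from -1.41 to -1.28 without any 1 sample. The causes were not tested. Replicate numbers gave no sign of pairing: same-numbered samples' deviations correlated at -0.14, -0.10 and 0.05 over genes.

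Of the members, 23 kept their sign in all 19 alternatives and 17 did not, none of them called and none with a reported difference beyond 0.22. With the replicate block the turned values were 0.0039 for Irf9, 0.041 for Isg15, 0.040 for Usp18, 0.034 for Parp9, 0.026 for Mx2, 0.019 for Oasl2, 0.066 for Eif2ak2, -0.0092 for Bst2, 0.11 for Igtp and 0.14 for Phf11d. With array weights they were 0.035 for Isg15, 0.033 for Usp18, 0.012 for Oasl2 and 0.0071 for Xaf1, and with a second quantile normalization 0.017 for Isg15, 0.058 for Igtp and 0.040 for Xaf1. With the plasmacytoid DC covariate they were 0.014 for Irf9, 0.10 for Isg15, -0.098 for Bst2, 0.038 for Igtp and 0.0030 for Ifi35, with the macrophage covariate 0.028 for Igtp, and with the non-classical monocyte covariate -0.042 for Irf7, -0.073 for Gbp7 and -0.060 for Irgm1. Without any 1 sample the ranges that crossed 0 were -0.016 to 0.073 for Irf7, -0.080 to 0.023 for Irf9, -0.11 to 0.11 for Isg15, -0.31 to 0.048 for Usp18, -0.15 to 0.013 for Oas2, -0.094 to 0.039 for Oasl2, -0.16 to 0.0051 for Cmpk2, 0.00 to 0.27 for Gbp7, -0.042 to 0.042 for Igtp, -0.037 to 0.051 for Irgm1 and -0.041 to 0.021 for Xaf1.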

Other observations

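Gbp7 and Phf11d had control SDs of 0.33 and 0.29, against a median of 0.14 over the members, and their control values fell in 2 ranges. Gbp7 was 7.52, 7.69 and 7.59 in control replicates 1 to 3 and 8.19, 8.22 and 8.16 in control replicates 4 to 6. Phf11d was 6.52, 6.75 and 6.73 in the former and 7.30, 7.06 and 7.05 in the latter. The knockouts had 8.29, 8.03 and 7.76 for Gbp7 and 6.79, 6.85 and 6.77 for Phf11d. The labels do not say which controls came from C57BL/6 and which from CD11c.Cre mice.

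Igtp had the same value, 7.80, in all 3 knockouts, identical to the last deposited digit, as was the case for 287 of the 22180 genes.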
